A study of Danio rerio with 8 samples.

Results

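The genes described here are 88 zebrafish genes whose arrays read lower in normoxic embryos with 8 somites than in normoxic gastrulae. They are the rows with an NM_ identifier, RefSeq's prefix for a curated mRNA, in which the higher of the 2 normoxic 8-somite values lay at least 1 log2 unit below the lower of the 2 normoxic gastrula values. Of 3055 such rows, 94 met that threshold, 6 of them were left out by name, and 88 remained. The whole table has 37157 rows, and 1198 rows with other identifiers met the same threshold. A gene symbol was found for 72 of the 88, and 16 are known here by their identifier alone.

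The samples were whole wildtype embryos (Danio rerio) raised at 28.5 °C, each sample a pool of 12 to 15 embryos. Hypoxic 8-somite embryos (12 h of development) gave 1 array, normoxic 8-somite embryos 2, hypoxic gastrulae at the shield stage (6 h) 2 and normoxic gastrulae 2. Hypoxia was 1 to 2 h in water kept under 1% oxygen by nitrogen, and the labels list no transgene, mutation or drug for any group. A second hypoxic 8-somite sample has an empty column and was not analysed here.

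A fish egg is loaded by the mother with RNAs and proteins that run the earliest cell divisions. The embryo then switches on its own genome and clears most of that maternal RNA, and at the shield stage cells fold inward to form the germ layers under a thin outer epithelium, the enveloping layer. By the time somites form along the trunk, genes for egg structures, rapid division and the start of gastrulation have normally given way to genes of muscle, nerve and other tissues. Hypoxia is sensed through the HIF transcription factors, and zebrafish embryos are known to slow or stop their development when oxygen is nearly absent.

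The arrays bear on every result below. Array medians ran from 8.51 to 8.74, while the interquartile range was 2.51 on the hypoxic 8-somite array, 2.78 and 3.02 on the normoxic 8-somite arrays, 2.31 and 2.18 on the hypoxic gastrula arrays and 2.75 and 2.86 on the normoxic gastrula arrays. Hypoxic gastrula replicate 2, with the narrowest range, read below replicate 1 in 76 of the 88 genes, against 54.4% of all rows. It did so in 82.2% of the 1198 other rows that met the threshold. Its part in the results was not tested. Values without it are given for some medians, counts and signs, and not for each gene. Embryos are measured whole, so fewer cells of a type and less RNA per cell cannot be told apart. Nothing in the labels says how the replicate pools relate to each other beyond calling them biological replicates.

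The normoxic values chose the genes and are given here as a description, with no test. The widest margins belonged to NM_001030142, which had 8.77 and 8.91 in normoxic 8-somite embryos against 12.44 and 12.22 in normoxic gastrulae, and zgc:153911, with 8.29 and 8.59 against 11.64 and 11.85. At the threshold, the margin was -1.0252 for trib3, -1.0135 for cdcp1a and -1.0013 for NM_201045 just inside, and -0.9998 for vgll4l, -0.9979 for pip5k1aa and -0.965 for aplnrb just outside. Over the 88 genes the difference of means in normoxia had a median of -1.70 and ran from -3.96 for alox5b.3 to -1.09 for rac1b.

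The 10 largest normoxic differences of means were those of alox5b.3, NM_001030142, zgc:153911, NM_001098263, fam113, map1lc3c, clic5b, NM_001030079, zgc:114041 and nnr. Of those whose values are not given further on, fam113 had 8.75 on the hypoxic 8-somite array, 9.06 and 9.29 in normoxic 8-somite embryos, 10.53 and 9.90 in hypoxic gastrulae and 11.93 and 12.36 in normoxic gastrulae. In the same order zgc:114041 had 9.52, then 10.59 and 10.82, then 11.84 and 10.98, then 13.12 and 13.61, and NM_001030079 had 9.16, then 10.33 and 9.65, then 11.57 and 10.98, then 12.92 and 12.56. In these 3 genes and in zgc:153911, with 8.13 on the hypoxic 8-somite array and 10.48 and 9.05 in hypoxic gastrulae, the hypoxic gastrulae lay between the normoxic stages, and none has a role assigned here.

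**Figure D1:**
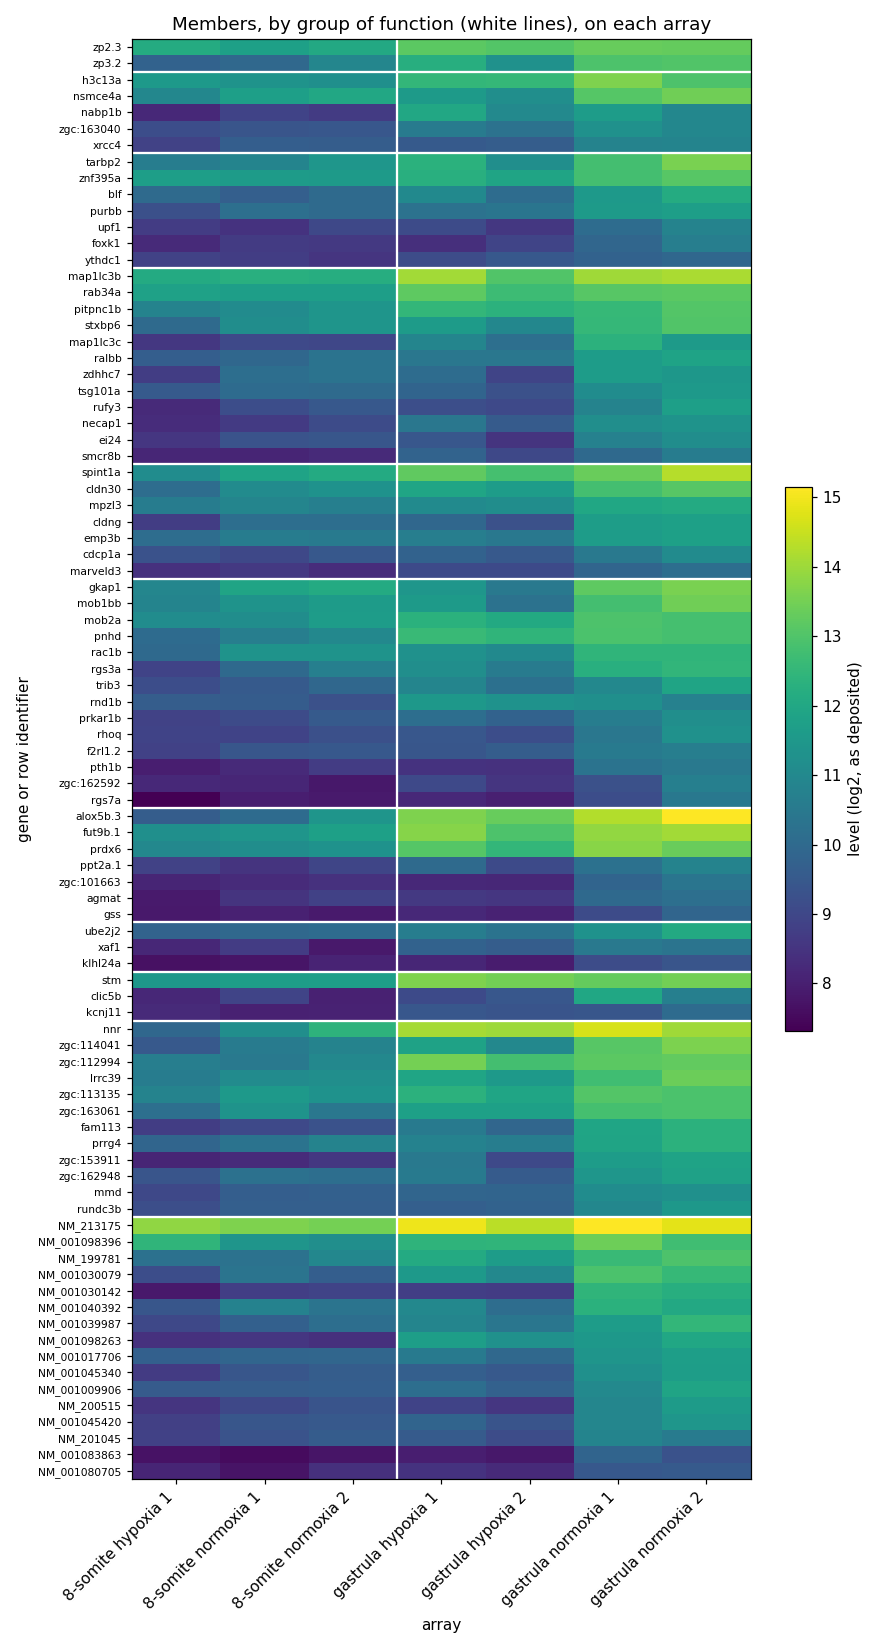
Level of each of the 88 genes (rows, in groups of function separated by white lines) on each of the 7 arrays (columns), in log2 units as deposited. Columns left of the white line are the 8-somite arrays, which are darker in most rows than the gastrula arrays to its right; the normoxic columns were used to choose the genes.

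By what their names are known for, 60 of the 88 genes fell into 9 groups of function, 12 had a symbol but no role assigned here, and 16 had no symbol. The largest groups were 14 genes of small GTPases and signalling and 12 of autophagy and membrane traffic. There were 7 genes each for epithelial junctions and surface, for transcription and RNA, and for metabolism and redox, 5 for histones and DNA, 3 for protein turnover and cell death, 3 for channels and matrix, and 2 for the egg coat. The grouping was made after the values were seen and serves to order the account, and many of the roles given below are known mainly from mammalian relatives of the zebrafish genes.

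The stage difference under hypoxia asked whether the same genes were lower at 8 somites in embryos that the choice of genes had not used. In 82 of 88 genes the hypoxic 8-somite array read below both hypoxic gastrula arrays, against 48.4% of all rows and 91.7% of the 1198 other rows that met the threshold. It read above both in 1 gene, NM_001098396, against 28.1% of all rows, and between them in 5, which were mob1bb, gkap1, tsg101a, ei24 and upf1. The median difference, 8-somite minus gastrula, was taken from the fit with dye described below. It was -0.92 on the log2 scale over the 88 genes (middle values from -1.48 to -0.51), against -0.10 over all rows and -1.12 over the 1198. Rows with other identifiers, chosen in the same way, thus had a somewhat lower median than the 88. Without hypoxic gastrula replicate 2 the median of the 88 was -1.22, and with all arrays but no dye term it was -0.91. The value of -1.22 sets a Cy3 array against a Cy5 array. It therefore rests on a dye effect estimated only on the normoxic arrays that chose the genes.

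In the limma fit over all 7 arrays, 6 of the 88 genes passed as lower and 0 as higher between the hypoxic stages at an adjusted p under 0.05, against 0.423% of all rows called lower (157 rows) and 1.97% called higher. The counts were 45 lower and 0 higher at an unadjusted p under 0.05, where 5.63% of all rows were lower and 9.92% higher. At an adjusted p under 0.1 they were 15 and 0 (1.02% and 3.64% of all rows), and without the dye term 15 and 0 at an adjusted p under 0.05 (1.03% and 3.15%). Both the spread and the dye term in this fit draw on the normoxic arrays as well. The lone hypoxic 8-somite array carried Cy5, so its difference is shifted by a dye effect estimated partly on the arrays that chose the genes. The choice of genes favours rows with little spread there, and the hypoxic 8-somite stage is 1 array. These calls therefore depend on the assumptions of a shared spread and a shared dye effect, which were not tested. With the 3 hypoxic arrays alone 0 genes passed and 47 were lower at an unadjusted p under 0.05 (5.43% of all rows). Leaving out either normoxic gastrula array gave 20 genes (1.92% of all rows), and leaving out either normoxic 8-somite array or either hypoxic gastrula array gave 0.

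The gene nnr had the lowest difference of the 88, and its role is not assigned here. Its level was 9.94 on the hypoxic 8-somite array, against 14.10 and 13.99 in hypoxic gastrulae, with 11.20 and 12.39 in normoxic 8-somite embryos and 14.69 and 14.02 in normoxic gastrulae. The difference was -3.78 ± 0.39 on the log2 scale (SE of the fit, 13.7-fold, limma adjusted p = 0.026). By plain array means, without the dye term, it was -4.11. The hypoxic 8-somite value lay below every other value of this gene.

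The gene nabp1b encodes a protein that binds single-stranded DNA at sites of repair. It had 8.23 on the hypoxic 8-somite array against 12.03 and 11.01 in hypoxic gastrulae, a difference of -3.04 ± 0.44 (limma adjusted p = 0.046). Its normoxic values were 8.90 and 8.68 at 8 somites and 11.64 and 10.93 in gastrulae, so hypoxic and normoxic gastrulae overlapped.

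The secreted factor gene pnhd, named pinhead after its Xenopus relative, had 10.05 against 12.64 and 12.44 in hypoxic embryos of these stages, a difference of -2.4 ± 0.23 (adjusted p = 0.024). In normoxia it had 10.67 and 10.98 at 8 somites against 12.92 and 12.83 in gastrulae. The gene stm encodes starmaker, a matrix protein of the mineral bodies of the inner ear. It had 11.47 against 13.64 and 13.49 in hypoxic embryos, a difference of -2.1 ± 0.25 (adjusted p = 0.031), and 11.67 and 11.72 against 13.30 and 13.49 in normoxic ones. For both genes the 2 stages were far apart in each condition.

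The remaining calls were zgc:112994 and NM_001098263, which have no role assigned here. The level of zgc:112994 was 10.66 against 13.50 and 12.81 in hypoxic embryos, a difference of -2.31 ± 0.32 (adjusted p = 0.045). That of NM_001098263 was 8.44 against 11.70 and 11.27, a difference of -3.08 ± 0.35 (adjusted p = 0.03). Over 16 other settings the 6 genes stayed below 0 in each one, and passed the threshold in only some of them. These settings are not all distinct, since leaving out either array of a normoxic group gave the same values. Among the 16 is a setting that was added after the data were seen.

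**Figure D2:**
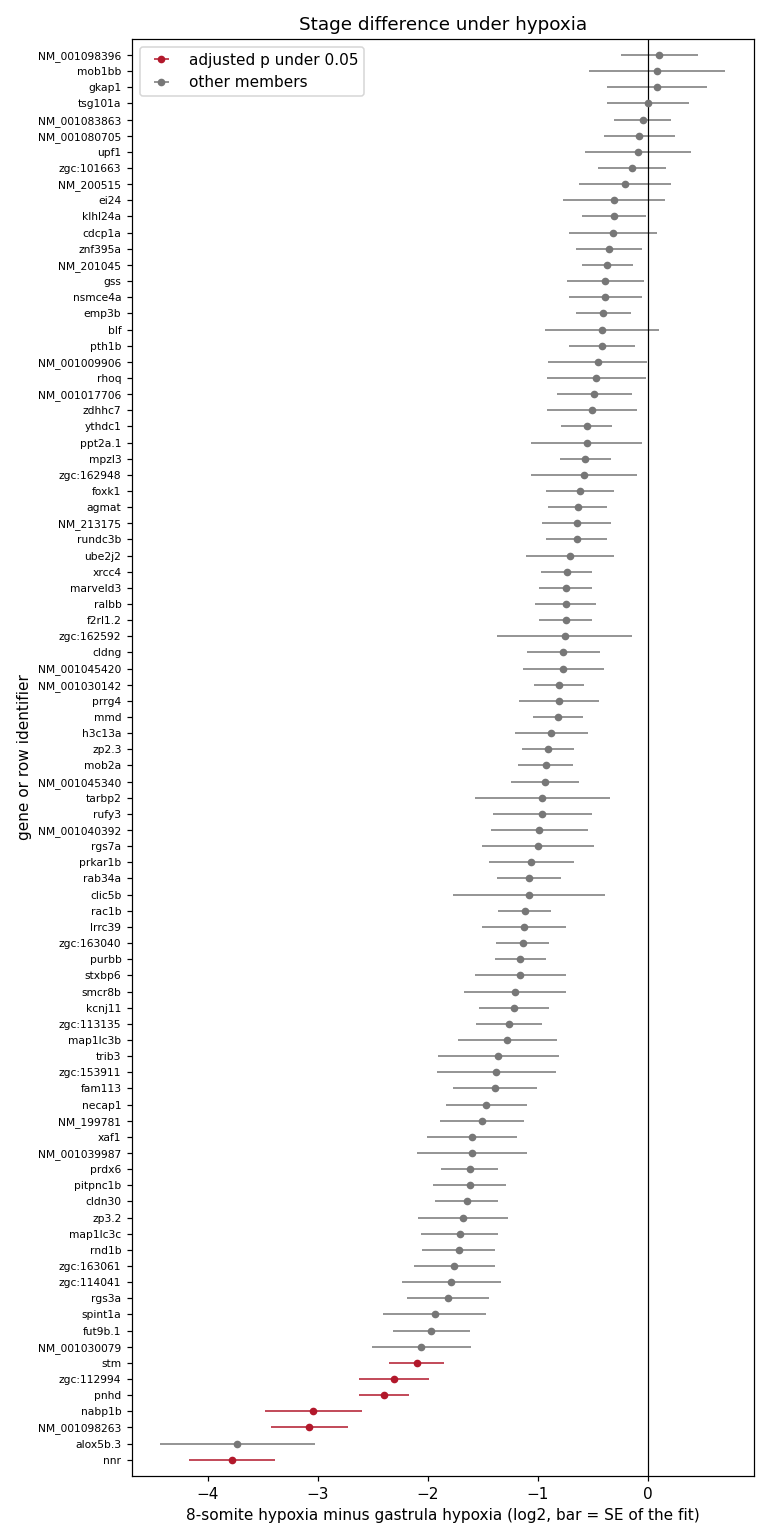
Difference between the hypoxic 8-somite array and the hypoxic gastrula arrays for each of the 88 genes, in log2 units from the fit with dye, with bars of 1 SE. The 6 genes with an adjusted p under 0.05, in red, lie between -3.78 (nnr) and -2.1 (stm), and 84 of the 88 lie below 0.

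Several genes with large differences did not pass. The lipoxygenase gene alox5b.3, of an enzyme family that makes leukotriene precursors from arachidonic acid, had 9.64 on the hypoxic 8-somite array against 13.65 and 13.33 in hypoxic gastrulae, a difference of -3.73 ± 0.70 (adjusted p = 0.083). Its normoxic replicates were farther apart, with 10.06 and 11.41 at 8 somites and 14.24 and 15.15 in gastrulae. The fucosyltransferase gene fut9b.1, which adds fucose to surface sugars, differed by -1.97 ± 0.35, and the protease inhibitor gene spint1a, which keeps the skin epithelium intact, by -1.94 ± 0.47 (adjusted p = 0.076 and 0.14). The antioxidant enzyme gene prdx6 differed by -1.62 ± 0.26 (adjusted p = 0.058).

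At the other end, the fitted difference was at or above 0 in 4 genes, whereas without the dye term 87 of the 88 were below 0. They were NM_001098396 (0.10 ± 0.35), mob1bb, a kinase activator of the Hippo pathway (0.08 ± 0.62), gkap1, an anchor of cGMP-dependent kinase (0.08 ± 0.45), and tsg101a, of the ESCRT machinery that sorts cargo for lysosomes (0.00 ± 0.37). By plain array means the last 3 were slightly lower at 8 somites, with differences of -0.07 for mob1bb, -0.06 for gkap1 and -0.02 for tsg101a. In gkap1 and tsg101a the hypoxic gastrula arrays were already below both normoxic 8-somite arrays, as given below.

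The hypoxia difference in gastrulae asked how the genes behaved when oxygen was withdrawn at the earlier stage. The choice of genes picked rows that were high on the normoxic gastrula arrays, and this by itself favours a lower value on the hypoxic ones, so the values are a description with no test for single genes. Both hypoxic gastrula arrays read below both normoxic ones in 78 of 88 genes, against 29.8% of all rows and 76.8% of the 1198 other rows chosen in the same way. They read above both in 2 genes, rnd1b and stm (31.5% of all rows), and overlapped in 8. For stm the margin was thin, since the second replicates of both conditions read 13.49. The median difference was -1.27 over the 88 genes, against 0.01 over all rows and -1.07 over the 1198. After quantile normalization of the arrays again it was -0.90. After centring each array on its median it was -1.45, where the median of all rows moved to -0.16. Without hypoxic gastrula replicate 2 it was -1.03. All rows are no match in level for the 88. On the normoxic gastrula arrays the lower quartile of the 88 was 10.79 and 10.91, above the upper quartile of all rows, 10.58 and 10.69. On the hypoxic gastrula arrays the upper quartile of all rows was lower, 10.28 and 10.17. The part of these narrower arrays in the difference was not tested.

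In the limma fit with dye 0 rows of the table passed for this comparison. At an unadjusted p under 0.05, 66 of the 88 genes were lower and 0 higher, where 15.8% of all rows were lower and 11% higher. At an adjusted p under 0.1, 50 were lower (7.55% of all rows) and 0 higher (3.99%), and without the dye term 42 were lower at an adjusted p under 0.05 (5.44% of all rows) and 0 higher (2.7%). Leaving out normoxic gastrula replicate 1 gave 63 genes (13.8% of all rows), and leaving out any 1 of the other arrays gave 0. The normoxic arrays of this comparison chose the genes, so nothing about them is read from these counts.

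The lowest value of a gene with a symbol was that of gkap1, with 11.44 and 10.48 in hypoxic gastrulae against 13.20 and 13.58 in normoxic ones, a difference of -2.43 ± 0.35. It was followed by mob1bb, with 11.60 and 10.28 against 12.80 and 13.46 (-2.19 ± 0.48), and rufy3, which links membranes to the transport machinery, with 9.20 and 9.04 against 10.81 and 11.74 (-2.15 ± 0.35). In none of these did hypoxic and normoxic arrays overlap, while the hypoxic replicates of gkap1 and mob1bb stood about 1 log2 unit or more apart.

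The tight junction gene cldng had 9.95 and 9.27 against 11.69 and 11.76 (-2.11 ± 0.25). The chloride channel family gene clic5b had 9.09 and 9.45 against 11.97 and 10.71 (-2.07 ± 0.53), with 8.18 against 8.93 and 8.04 in 8-somite embryos. The second row of clic5b was nearly level in gastrulae, with 7.79 and 7.55 against 7.68 and 7.76. On the 7 arrays that row read from 7.55 to 7.82, near the lower quartile of all rows (7.77 to 7.99). A fall would be hard to see at that level. The palmitoyltransferase gene zdhhc7 had 10.09 and 8.92 against 11.65 and 11.47 (-2.06 ± 0.31). Of rows without a symbol, NM_001030142 was lowest, with 8.77 and 8.72 against 12.44 and 12.22 (-3.59 ± 0.18).

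In 9 genes, named after their values were seen, both hypoxic gastrula arrays lay below both normoxic 8-somite arrays. They were NM_001030142, NM_200515, cldng, zgc:101663, zdhhc7, tsg101a, rac1b, gkap1 and nsmce4a. That is 10.2% of the 88, against 29.1% of all rows and 5.76% of the 1198. The choice of rows low on the normoxic 8-somite arrays makes this order less frequent, and nothing is read from the count. The gap was narrow in most of the 9. The small GTPase gene rac1b, which drives actin at the cell edge, had 11.27 and 11.05 in hypoxic gastrulae. In normoxic 8-somite embryos it had 11.35 and 11.35. In the same order NM_001030142 had 8.77 and 8.72 against 8.77 and 8.91, with the nearest values level to the decimals given. For zgc:101663 the values were 8.23 and 8.19 against 8.27 and 8.44, and for zdhhc7 10.09 and 8.92 against 10.14 and 10.29. The gap was wider for gkap1, which had 11.90 and 12.12 in normoxic 8-somite embryos. In 57 genes both hypoxic gastrula arrays lay above both normoxic 8-somite arrays, which is 64.8% of the 88 against 38.9% of all rows and 69.9% of the 1198. In 64 the hypoxic gastrula mean lay between the normoxic means of the stages, which is 72.7% against 15.3% of all rows and 76.7% of the 1198. The choice of genes set these normoxic means at least 1 log2 unit apart. Over all rows the quartiles of that difference were -0.28 and 0.16. A larger share than over all rows is thus favoured by the choice in both counts, and nothing is read from it.

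The 6 genes with a symbol and the highest hypoxia differences in gastrulae had values near 0 or above it, and in rab34a, nabp1b and zgc:112994 the hypoxic and normoxic arrays overlapped. The gene rnd1b, whose product loosens cell adhesion, had 11.48 and 11.30 in hypoxic against 11.22 and 10.76 in normoxic gastrulae (0.40 ± 0.25). The difference was 0.23 ± 0.34 for nabp1b and 0.17 ± 0.19 for stm, whose values are given above. It was -0.08 ± 0.25 for zgc:112994, -0.19 ± 0.19 for the egg coat gene zp2.3, whose hypoxic arrays both read below the normoxic ones, and -0.20 ± 0.23 for rab34a, a GTPase of vesicle traffic. The sign of 5 of these 6 depends on the setting, rnd1b excepted. Of the 6 genes called lower between the hypoxic stages, nabp1b, stm and zgc:112994 are among these. Both comparisons use the same hypoxic gastrula arrays, and high values there favour a place in each, so nothing is read from this overlap.

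**Figure D3:**
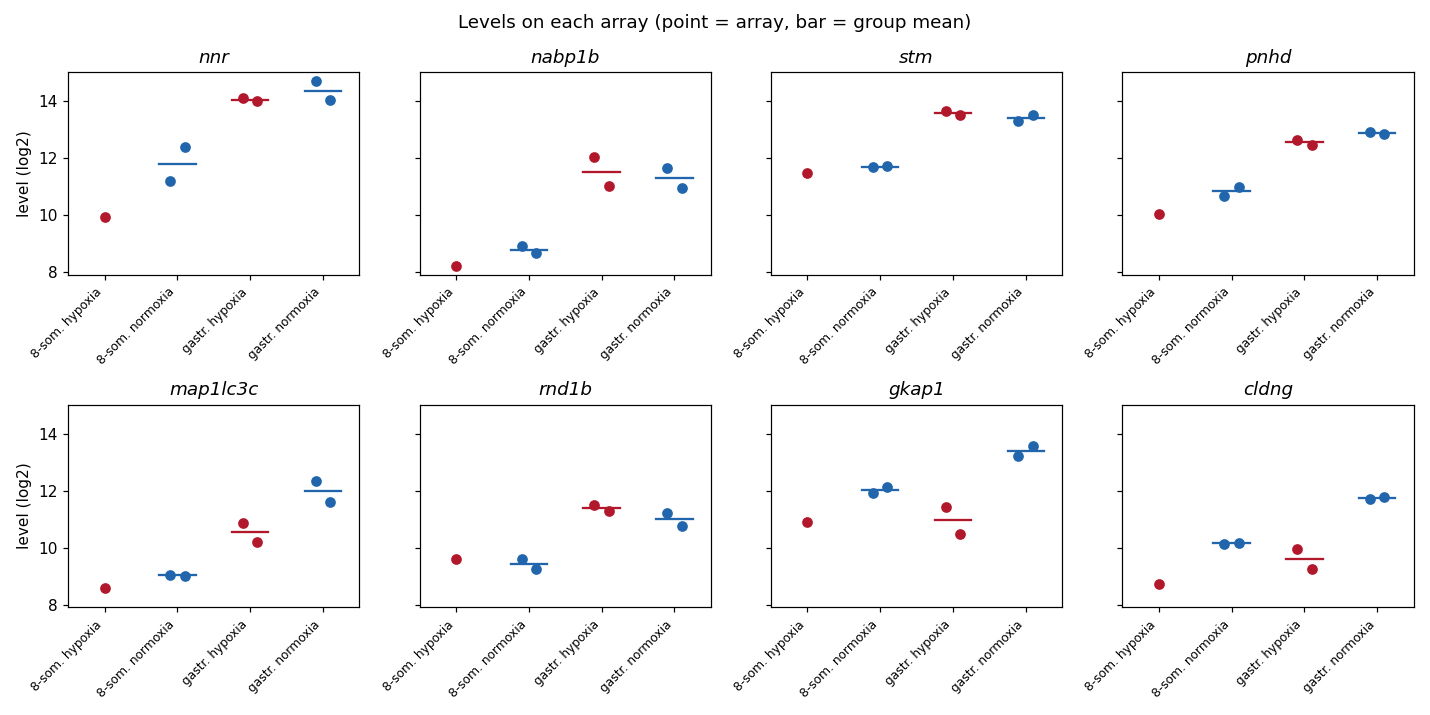
Level (log2) of 8 genes on each array, hypoxic in red and normoxic in blue, with a bar at the mean of groups with 2 arrays. In nnr, nabp1b, stm, pnhd and rnd1b the hypoxic gastrula points lie near the normoxic gastrula points, while in gkap1 and cldng they lie below the normoxic 8-somite points.

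The hypoxia difference in 8-somite embryos rests on 1 hypoxic array. The choice of genes picked rows low on the normoxic 8-somite arrays, which favours a higher value under hypoxia. The hypoxic array nevertheless read below both normoxic arrays in 66 of 88 genes, against 38.4% of all rows and 63.1% of the 1198 other rows. It read above both in 10 (33.7% of all rows) and between them in 12. The median difference was -0.39 over the 88 genes, -0.01 over all rows and -0.29 over the 1198. After quantile normalization again it was -0.29 over the 88. Here too all rows differ in level from the 88. The median level on the normoxic 8-somite arrays was 9.78 and 9.97 for the 88, against 8.58 and 8.54 for all rows.

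For this comparison 0 rows passed in limma with dye, and 16 of the 88 genes were lower and 1 higher at an unadjusted p under 0.05, where 4.62% and 2.47% of all rows were. Without the dye term 0 of the 88 passed in either direction (0.0108% of all rows lower and 0.0135% higher). These counts set 1 hypoxic array against arrays that chose the genes, and nothing is read from them. The lowest were nnr (-1.53 ± 0.39), cldng (-1.32 ± 0.33), rac1b (-1.31 ± 0.24) and rgs3a (-1.29 ± 0.37), which encodes a brake on G protein signalling. For cldng the value was 8.73 on the hypoxic array against 10.14 and 10.16 on the normoxic ones. The highest with a symbol were the histone H3 gene h3c13a (0.35 ± 0.33), zp2.3 (0.31 ± 0.24), blf, a zinc finger gene (0.28 ± 0.52), and ppt2a.1, of a lysosomal thioesterase (0.26 ± 0.50). The 1 gene higher at an unadjusted p under 0.05 was NM_001098396, with 12.44 against 11.40 and 11.19.

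Both hypoxia differences were below 0 in 71 of 88 genes by array means, against 38.6% of all rows and 69.5% of the 1198. The comparisons at the stages have no array in common, while the choice of genes used the normoxic arrays of both.

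**Figure D4:**
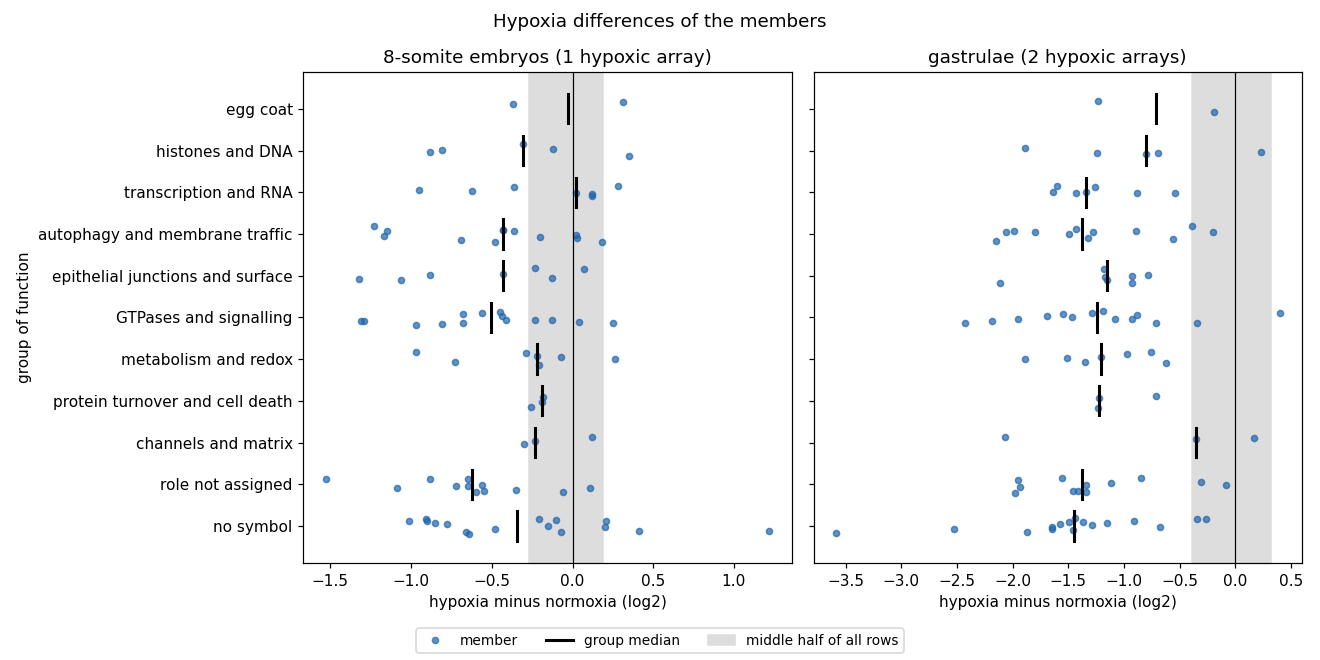
Hypoxia minus normoxia (log2) for each of the 88 genes by group of function, in 8-somite embryos (left) and gastrulae (right), with a black bar at each group's median and a grey band from the first to the third quartile of all rows; the horizontal scales differ. In gastrulae most genes lie left of the band, and in 8-somite embryos the group medians lie between -0.62 and 0.02.

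The egg coat genes zp3.2 and zp2.3 encode zona pellucida proteins made by the oocyte. The level of zp3.2 was 12.23 and 11.28 in hypoxic against 12.96 and 13.01 in normoxic gastrulae, and 9.77 against 9.97 and 10.92 in 8-somite embryos. That of zp2.3 was 13.18 and 13.07 against 13.32 and 13.31 in gastrulae, and 12.15 against 11.77 and 12.05 in 8-somite embryos. Between the hypoxic stages zp3.2 differed by -1.68 ± 0.41 and zp2.3 by -0.91 ± 0.24 (adjusted p = 0.14 and 0.17).

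Of the genes of histones and DNA, h3c13a encodes histone H3 and zgc:163040 is listed with the synonym HIST1H4, a histone H4 name. These messages are normally abundant while cells divide fast. The level of h3c13a was 12.51 and 12.52 in hypoxic against 13.65 and 12.97 in normoxic gastrulae, and that of zgc:163040 was 10.58 and 10.27 against 11.29 and 10.94. Near-identical histone copies may share a probe, so the source of these signals within the family is uncertain. The repair genes xrcc4, of DNA end joining, and nsmce4a, of the SMC5/6 complex, differed by -1.24 ± 0.18 and -1.89 ± 0.26 in gastrulae and by -0.81 ± 0.23 and -0.88 ± 0.33 in 8-somite embryos.

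All 12 genes of autophagy and membrane traffic were below 0 in hypoxic gastrulae (median -1.38). In hypoxic 8-somite embryos 9 were (median -0.43), and between the hypoxic stages 11 were (median -1.12), with 0 calls. Over the 88 genes the counts were 85, 69 and 84, so this group was near the whole set. The shares below 0 were 48.5%, 51.7% and 61.5% over all rows, and 90.2%, 68.5% and 95.7% over the 1198. The LC3 genes encode the small protein that is attached to autophagosome membranes. The level of map1lc3c was 8.60 on the hypoxic 8-somite array against 10.88 and 10.19 in hypoxic gastrulae (-1.71 ± 0.35, adjusted p = 0.099), with 9.06 and 9.0 against 12.35 and 11.59 in normoxia. Its relative map1lc3b had 12.12 against 14.06 and 13.02 (-1.28 ± 0.45, adjusted p = 0.28), with 12.26 and 12.19 against 14.02 and 14.17 in normoxia.

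Hypoxic gastrulae thus lay between the normoxic stages for map1lc3c, and for map1lc3b 1 of their 2 arrays lay within the normoxic gastrula values. Of the others, smcr8b, a partner of the C9orf72 protein in autophagy, had 9.82 and 9.02 in hypoxic against 10.01 and 10.60 in normoxic gastrulae, and ei24, needed for autophagosome turnover, had 9.45 and 8.50 against 10.76 and 11.16. Rows with other identifiers were not searched for listed genes. Of 36 autophagy genes listed, 10 were found by symbol among the NM_ rows, which is what measured means for the lists here. Between the hypoxic stages 0 of these passed in either direction and 8 were below 0 (median -0.40), against 61.5% of all rows. Named after their values were seen, the 2 above 0 were atg3, the enzyme that couples LC3 to lipid (1.25 ± 0.37), and becn1, of the kinase complex that starts autophagosomes (1.02 ± 0.27), with adjusted p = 0.21 and 0.18.

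The 7 genes of epithelial junctions and surface were all below 0 in hypoxic gastrulae, with both hypoxic arrays below both normoxic ones in each (median -1.15), as was so for 78 of the 88 genes and 76.8% of the 1198 (29.8% of all rows). Claudins seal the space between epithelial cells, and marveld3 also sits at tight junctions. The claudin gene cldn30 had 11.92 and 11.65 in hypoxic against 12.81 and 13.13 in normoxic gastrulae, and 10.11 against 11.09 and 11.30 in 8-somite embryos, with a stage difference under hypoxia of -1.65 ± 0.29 (adjusted p = 0.075). The level of marveld3 was 9.07 and 9.09 against 9.86 and 10.16 in gastrulae, and 8.44 against 8.61 and 8.32 in 8-somite embryos.

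Only 2 of 24 listed markers of the enveloping layer were measured under a symbol, and neither is among the 88. In hypoxic against normoxic gastrulae krt97 had 15.60 and 15.58 against 15.59 and 15.90, and agr1 had 13.26 and 12.79 against 12.09 and 11.42. The part of epithelial cell number in the junction genes was not tested.

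Of the 14 GTPase and signalling genes, 13 were below 0 in hypoxic gastrulae (median -1.24) and 12 in hypoxic 8-somite embryos (median -0.51). Over the 88 genes the counts were 85 and 69, and over all rows the shares were 48.5% and 51.7%. The exceptions among the 14 were rnd1b at both stages and zgc:162592, listed with the receptor synonym gpr211, at 8 somites (0.04 ± 0.61). The parathyroid hormone gene pth1b, a calcium regulator, had 8.47 and 8.43 in hypoxic against 10.30 and 10.50 in normoxic gastrulae (-1.95 ± 0.23), which is close to its normoxic 8-somite values of 8.24 and 8.71. The protease-activated receptor gene f2rl1.2 differed by -1.08 ± 0.19 and trib3, a pseudokinase gene of stress signalling, by -0.88 ± 0.43.

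Of the 7 transcription and RNA genes, all were below 0 in hypoxic gastrulae (median -1.34), as were 85 of the 88 genes and 48.5% of all rows. The median of the 7 in hypoxic 8-somite embryos was 0.02, against -0.39 over the 88. The helicase gene upf1 acts in nonsense-mediated decay of mRNA. It had 9.11 and 8.60 in hypoxic against 10.09 and 10.83 in normoxic gastrulae, and 8.71 against 8.47 and 9.01 in 8-somite embryos. The gene tarbp2, of the Dicer complex that makes small RNAs, had 12.32 and 11.18 against 12.80 and 13.57 in gastrulae, and purbb, a purine-rich element binding factor, had 10.28 and 10.36 against 11.60 and 11.72.

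The reader of m6A-modified RNA ythdc1 had the smallest difference of this group in gastrulae, -0.54 ± 0.18. The group's difference between the stages was not tested, since the choice of genes pushes gastrula values down and 8-somite values up. Of 58 listed genes of mRNA decay and translation control, 7 were measured, upf1 among them, and 0 passed between the hypoxic stages.

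In metabolism and redox, all 7 genes were below 0 in hypoxic gastrulae (median -1.21), as were 85 of the 88 genes and 48.5% of all rows. The peroxiredoxin gene prdx6 had 13.08 and 12.51 in hypoxic against 13.76 and 13.35 in normoxic gastrulae, and gss, which completes glutathione synthesis, had 8.22 and 8.06 against 9.11 and 9.86. The gene zgc:101663, listed with the glycosyltransferase synonym mgat4c, had 8.23 and 8.19 against 9.85 and 10.36, with 8.27 and 8.44 in normoxic 8-somite embryos. Of 27 listed genes of lipoxygenases and prostaglandins 6 were measured. Between the hypoxic stages 5 of these were below 0, alox5b.3 among them (-3.73 ± 0.70), against 61.5% of all rows. At an adjusted p under 0.05 in limma 0 passed as lower and 1 as higher, the phospholipase gene pla2g12b (2.43 ± 0.25, adjusted p = 0.026).

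The protein turnover and cell death genes were ube2j2, a ubiquitin-conjugating enzyme of the endoplasmic reticulum, klhl24a, of a ubiquitin ligase, and xaf1, a partner of the apoptosis inhibitor XIAP. All 3 were below 0 in both hypoxia differences, as were 71 of the 88 genes and 38.6% of all rows by array means. The medians of the 3 were -1.22 in gastrulae and -0.19 in 8-somite embryos. The potassium channel gene kcnj11 had 9.44 and 9.34 in hypoxic against 9.42 and 10.05 in normoxic gastrulae, and 8.25 against 8.03 and 8.06 in 8-somite embryos. In the annotation kcnj11 and mob2a, a kinase partner gene, are the only pair of the 88 that are next to each other among protein-coding genes.

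Among 19 gene lists for this tissue and treatment, 103 listed genes were found by symbol among the NM_ rows. Of them 4 are among the 88 (alox5b.3, map1lc3b, map1lc3c and upf1). In limma between the hypoxic stages, 0 of the 103 passed as lower and 5 as higher at an adjusted p under 0.05. Over all rows 0.423% passed as lower and 1.97% as higher. The 5 that passed as higher were meox1 (3.41 ± 0.50) and ripply1 (2.37 ± 0.24) of somites, the lipid carrier gene fabp1b.1 (1.76 ± 0.25), pla2g12b and the heat shock gene hsp70.3 (3.43 ± 0.23). Of the 6 measured HIF targets and regulators, none is among the 88 and 0 passed between the hypoxic stages. All 6 were above 0 in hypoxic gastrulae (median 0.58), where 48.5% of all rows were below 0. Their differences there ran from 0.14 ± 0.18 for pdk3b to 1.63 ± 0.35 for bnip3, and 0 passed. In cited2 (0.24 ± 0.29) the hypoxic and normoxic gastrula arrays overlapped.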

How the data were processed

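The deposited table holds log2 values, which the authors made with RMA per the submitters' processing notes; no version, array design or scanner is given in the sources used here. That they are on a log2 scale was judged from their range. The cDNA carried Cy3 or Cy5 dye per the labels, and the design text gives 8 chips for the 8 samples, so each was counted as 1 array; the sources used here do not say otherwise whether samples of opposite dye shared a slide, in which case they would not be independent. Signal over background was not used here, and the number of arrays limits the precision.

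Identifiers were matched without versions to RefSeq transcripts of assembly GRCz12tu, for names and neighbours alone; 2663 of 3055 NM_ rows had 1 symbol. The model had the 4 groups and dye, in limma 3.58.1 under R 4.3.3, over all 37157 rows and 7 arrays (2 residual and 2.92 prior degrees of freedom), with two-sided p-values adjusted by Benjamini and Hochberg's method across the whole table. The model was run on simulated data with independent noise, no dye effect and no choice of genes by normoxic values. That run does not bear on these limits of the calls. Replicates are called biological but their origin is not described, so a p-value reflects no more than the differences among these arrays; the lone hypoxic 8-somite array was given the spread of the rest.

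The genes, lists and tests were chosen with earlier results of these data known. Values were given for the 10 largest normoxic falls, up to 8 called genes in each direction, the 6 lowest and 6 highest hypoxia differences in gastrulae, the 4 lowest and 4 highest in 8-somite embryos, list members and genes at the threshold; others were named by function after their values were seen. No sequence was used here, and the planned promoter motif search was not run. Alternatives are in the closing section. Deviations of same-numbered samples correlated at 0.54 between normoxic stages and at -0.146 between hypoxic and normoxic gastrulae. Between normoxic 8-somite embryos and hypoxic gastrulae they correlated at -0.273. The signs differ, so the numbers were not taken to pair samples. The samples behind 0.54 and -0.273 carried opposite dyes, and those behind -0.146 the same dye. A dye effect shared by all groups would give the other sign for 0.54 and -0.146, and the sign seen for -0.273. That the dye effect is shared, as the model assumes, was not tested.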

Additional observations from a re-analysis of the deposited data

Results flagged for a closer look

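In 7 genes every hypoxic array lay on one side of the normoxic arrays in gastrulae and on the other side in 8-somite embryos. The difference between the stages was not tested, and how many of all rows have this pattern was not counted. Of all rows, 29.8% lay below and 31.5% above in gastrulae, and 38.4% below and 33.7% above in 8-somite embryos, so nothing is read from the number of genes. The hypoxia difference of NM_001098396 was 1.22 in 8-somite embryos, the widest of the 7, and -0.68 in gastrulae. In gastrulae it was -0.80 for h3c13a, -0.19 for zp2.3, -0.54 for ythdc1, -0.88 for znf395a and -1.19 for zgc:162592, and in 8-somite embryos 0.35 for h3c13a, 0.31 for zp2.3, 0.12 for ythdc1, 0.12 for znf395a and 0.04 for zgc:162592. The order was the opposite in stm, with 0.17 in gastrulae and -0.23 in 8-somite embryos. The choice of genes favours the signs seen in the first 6, and only 1 hypoxic array stands behind each 8-somite value.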

How the results depend on the processing

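The genes called lower between the hypoxic stages numbered 6 (0.423% of all rows were called), and 15 without dye (1.03%), 0 with a replicate block within stage in place of dye, 10 after quantile normalization again (0.665%), 15 at an adjusted p under 0.1 (1.02%) and 0 with the hypoxic arrays alone; leaving out 1 array gave 0 to 20 (up to 1.92%), and the median difference then ran from -1.22 (without hypoxic gastrula replicate 2) to -0.81. Called lower in hypoxic gastrulae were 0, and 42 without dye (5.44% of all rows), 24 with a replicate block in place of dye (2.61%), 33 without the lowest 25% of rows (4.98%), 26 after median centring (2.91%), 22 with a prior variance following intensity (2.5%), 50 at an adjusted p under 0.1 (7.55%) and 0 to 63 with 1 array left out (up to 13.8%). The median there was -0.90 after quantile normalization again and ran from -1.50 to -0.97 with 1 array left out. With gastrula numbers crossed in the replicate block, added after seeing the data, 61 genes were called lower (9.24%). The replicate block changed no call in 8-somite embryos, where 0 genes passed in any setting. Threshold choices of -0.5 and -2 gave 216 and 14 genes in place of 88.

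Signs turned in gastrulae for rab34a (0.15), zgc:112994 (0.25) and zp2.3 (0.14) after quantile normalization again, for stm (-0.01) after median centring, for zgc:112994 without normoxic gastrula replicate 2 (0.26) or hypoxic gastrula replicate 2 (0.16), for rab34a without hypoxic gastrula replicate 2 (0.07), and for nabp1b without hypoxic gastrula replicate 1 (-0.15); the cause was not tested. With 1 array left out in turn the values ran from -0.47 to 0.07 for rab34a, from -0.42 to 0.26 for zgc:112994 and from -0.15 to 0.62 for nabp1b. Without the hypoxic 8-somite array the comparisons that use it have no value. A group reduced to 1 array took its spread from the rest.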
